A study of Mus musculus with 2 samples.

Results

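Abcb1a, Abcg2, Abcc4, Abcc1, Abcc5 and Abca1 are ATP-binding cassette (ABC) transporter genes whose products pump drugs, conjugates or lipids out of cells. These 6 genes were taken by their symbols from the 31253 genes listed for embryonic mouse brain, and all 6 were found in both libraries. Their transcripts were described across cell classes, endothelial subclusters and genotypes. Abcb1a was mainly a gene of barrier endothelium, Abcg2 and Abcc4 were endothelial more broadly, and Abca1 was shared by endothelium and macrophages. Abcc1 and Abcc5 were lower in endothelial-like cells than in a pool of the other named classes, although a barrier subcluster was among the highest groups for Abcc5. In Foxq1iECKO endothelial-like cells, Abcb1a, Abcg2 and Abcc4 were lower and Abca1 slightly higher than in Foxq1flox/flox endothelial-like cells, all by less than 1.5-fold. The Abcb1a and Abca1 differences depended on which cells were counted. With an unnamed cluster of endothelial and pericyte markers added, the log2 ratio was -0.17 for Abcb1a and -0.03 for Abca1. Inside barrier subclusters Abcb1a was near equal between the libraries.

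ABC transporters bind ATP on paired cytoplasmic domains and use its hydrolysis to move a substrate across a membrane. In the mature blood-brain barrier, P-glycoprotein (the product of Abcb1a in mouse) and BCRP (the product of Abcg2) sit in the luminal membrane of capillary endothelium and return lipophilic drugs to the blood. MRP4 (Abcc4), MRP1 (Abcc1) and MRP5 (Abcc5) carry organic anions, including glutathione or glucuronide conjugates and cyclic nucleotides, and ABCA1 loads cholesterol and phospholipid onto apolipoproteins.

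The study compared brains at stage E12.5, with 1 library of Foxq1iECKO mice and 1 library of Foxq1flox/flox mice, to ask what endothelial FOXQ1, a forkhead transcription factor, does in brain vessel growth and barrier formation. The labels give Foxq1iECKO as the genotype, and the sources used here name neither the Cre driver, nor the induction, nor the number of embryos in each library. Cells were dissociated with collagenase, dispase and DNase, sorted with CD31 microbeads and captured in microwells, and the 3′ end of each transcript was counted by unique molecular identifiers (UMIs). The Foxq1iECKO library held 72445925 UMIs in 15108 barcodes and the Foxq1flox/flox library 76580165 UMIs in 15837 barcodes, with medians of 3660 and 3836 UMIs and 1914 and 2008 genes per barcode. After filters and removal of 551 and 557 predicted doublets, 12557 cells of the Foxq1iECKO library and 13376 cells of the Foxq1flox/flox library were used. The libraries shared 173 barcodes among the cells used, and ratios without those cells are given with the endothelial results. Although the labels call the sample endothelial cells, endothelial-like clusters made up 13.3% of the cells used in the Foxq1iECKO library and 17.4% in the Foxq1flox/flox library. Macrophages, fibroblasts, cartilage cells, neurons, radial glia and other cells made up most of the rest.

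Levels are UMIs summed over the cells of a group and scaled to the total of that group (CPM, counts per 1e6 UMIs). Brackets hold exact 95% intervals, which cover counting error only. With 1 library per genotype there was no replicate, so no test between genotypes was made. A gene was called higher or lower by size where the ratio was at least 1.5 and its interval excluded 1. None of the 6 genes was used to form or name a cluster.

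Foxq1, the targeted gene, was lower in Foxq1iECKO endothelial-like cells. It held 149.6 CPM [142.1, 157.3] in Foxq1iECKO and 439.7 CPM [429.4, 450.2] in Foxq1flox/flox endothelial-like cells, a log2 ratio of -1.56 [-1.64, -1.48]. In pericyte-like cells the levels were 532 CPM in Foxq1iECKO and 629 CPM in Foxq1flox/flox (log2 ratio -0.24). The sources used here do not place the deleted part, so a 3′ tag need not come from an intact transcript.

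In the GRCm38 build with the GENCODE M21 annotation, the members lie at separate loci. Abcb1a (ENSMUSG00000040584) is at chr5:8660077-8748575 on the plus strand, with 28 exons in its longest coding transcript. Abcg2 (ENSMUSG00000029802) is at chr6:58584523-58695676 on the plus strand (16 exons), and Abcc4 (ENSMUSG00000032849) at chr14:118482692-118706219 on the minus strand (31 exons). Abcc1 (ENSMUSG00000023088) is at chr16:14361558-14475737 on the plus strand (31 exons), Abcc5 (ENSMUSG00000022822) at chr16:20331303-20426394 on the minus strand (30 exons), and Abca1 (ENSMUSG00000015243) at chr4:53030787-53159895 on the minus strand (50 exons). The UMIs come from the 3′ ends of these transcripts, so each member could share reads with close relatives only through its last exons. Of the 941 windows of 60 bases in the last 1000 bases of each member's longest coding transcript, 0 occurred in a transcript of another gene, and no other annotated gene overlapped a member's last exon. This held for Abcb1a against its near copy Abcb1b as well.

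The promoters of 3 members are shown because they belong to the gene most tied to barrier endothelium (Abcb1a), to a member expressed through endothelium (Abcc4) and to the member shared with macrophages (Abca1), and they differ in base composition. Each is the stretch of 250 bases before a transcription start given by RefSeq (GRCm38.p6), read 5′ to 3′ along the gene's strand. Capitals mark 2 motifs that were searched on both strands, a forkhead core (TGTTTAC, reverse GTAAACA) and a GC box (GGGCGG, reverse CCGCCC).
Abcb1a, chr5:8566841-8567090, plus strand: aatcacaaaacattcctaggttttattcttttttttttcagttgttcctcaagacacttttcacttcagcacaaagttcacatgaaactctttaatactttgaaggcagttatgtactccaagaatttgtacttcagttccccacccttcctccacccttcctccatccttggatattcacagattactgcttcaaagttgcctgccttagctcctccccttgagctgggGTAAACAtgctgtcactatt
Abcc4, chr14:118706220-118706469, minus strand: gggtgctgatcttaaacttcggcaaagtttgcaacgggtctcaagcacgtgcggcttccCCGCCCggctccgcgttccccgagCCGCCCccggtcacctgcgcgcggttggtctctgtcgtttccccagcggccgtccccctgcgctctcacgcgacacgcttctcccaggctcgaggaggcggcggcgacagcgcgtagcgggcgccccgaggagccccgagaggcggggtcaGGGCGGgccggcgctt
Abca1, chr4:53159896-53160145, minus strand: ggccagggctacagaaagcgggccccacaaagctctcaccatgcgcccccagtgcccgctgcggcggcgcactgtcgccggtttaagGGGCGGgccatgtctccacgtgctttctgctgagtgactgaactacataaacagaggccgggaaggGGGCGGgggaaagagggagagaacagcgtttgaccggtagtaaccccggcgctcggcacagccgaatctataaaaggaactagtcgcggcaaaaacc
The Abcb1a stretch was AT-rich, with 40.4% GC, 0 CpG dinucleotides and 1 forkhead core that lies 20 bases before the start. It lies 92986 bases upstream of the nearest start in the GENCODE annotation. The Abcc4 stretch had 72.0% GC, 35 CpG dinucleotides and 3 GC boxes, and the Abca1 stretch 61.6% GC, 20 CpG dinucleotides and 2 GC boxes. Over 32851 windows of the same length before RefSeq starts, the medians were 52.4% GC and 6 CpG dinucleotides, 3.17% of windows held the forkhead core and 32.7% a GC box. Abcg2 has 3 RefSeq starts, with 3, 10 and 23 CpG dinucleotides before them and 0, 2 and 4 GC boxes, Abcc4 has a second start with 4 CpG dinucleotides and none of these motifs, and the Abcc5 stretch held 17 CpG dinucleotides and none of these motifs. An ETS core (CCGGAA, reverse TTCCGG), present in 12.03% of windows, was found in none of the stretches searched. No stretch of Abcc1 was searched. Such matches describe the letters of these windows. The 3′ tags do not show which start was used, and the data hold no measure of binding.

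Endothelial-like cells were compared in both libraries with a pool of the other named classes, without lymphatic endothelial-like cells and unnamed clusters. Abcb1a, Abcg2, Abcc4 and Abca1 were more abundant in endothelial-like cells than in this pool, and Abcc1 and Abcc5 were less abundant. Single classes could differ from the pool: Abca1 was higher in macrophage-like and Abcc5 lower in leukocyte-like cells than in endothelial-like cells. Abcb1a had the widest gap. It held 71.0 CPM in endothelial-like cells and 3.42 CPM in the named classes other than endothelial of the Foxq1iECKO library, a 20.8-fold difference. The Foxq1flox/flox library gave 99.5 and 4.04 CPM, a 24.7-fold difference. The gaps were 7.20-fold in Foxq1iECKO and 8.05-fold in Foxq1flox/flox for Abcg2, 7.26-fold and 9.32-fold for Abcc4, and 2.23-fold and 2.35-fold for Abca1. Thus 4 of 6 members were 2-fold or more higher in endothelial-like cells in both libraries, where 7.22% of all genes at 20 or more CPM were. Abcc1 was 2.74-fold lower in Foxq1iECKO endothelial-like cells and 2.96-fold lower in Foxq1flox/flox ones, and it was the 1 member that was 2-fold or more lower in both, beside 19.2% of all genes. Abcc5 was 1.85-fold lower in the Foxq1iECKO library and 2.05-fold lower in the Foxq1flox/flox library, on either side of that limit.

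**Figure D1:**
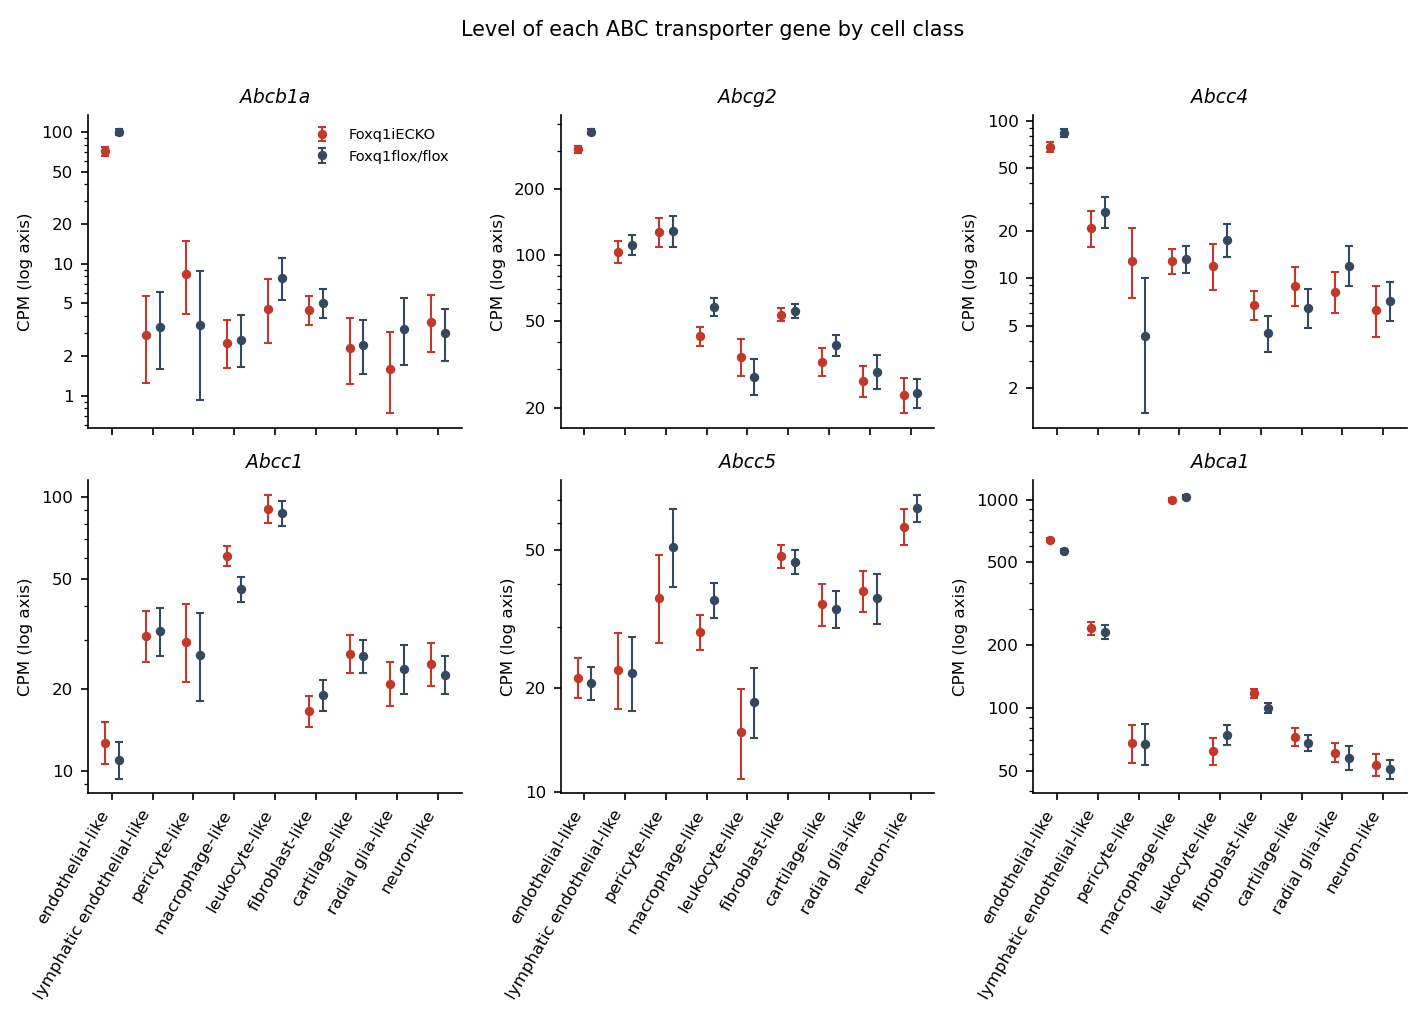
Level of each member in CPM (log axis) in 9 cell classes, with Foxq1iECKO in red left of Foxq1flox/flox in dark blue. Points are 1 library each and bars are exact 95% Poisson intervals. Abcb1a stands at 71.0 and 99.5 CPM in endothelial-like cells against 8.36 CPM or less in every other class drawn, whereas Abca1 is higher in macrophage-like than in endothelial-like cells.

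The exporters of drugs and conjugates differed in what the other classes held. Abcg2 was at 127 CPM in Foxq1iECKO and 129 CPM in Foxq1flox/flox pericyte-like cells and at 103 and 111 CPM in lymphatic endothelial-like cells, but at 22.8 and 23.3 CPM in neuron-like cells. Abcb1a was at 2.86 and 3.31 CPM in lymphatic endothelial-like cells, near its level in neuron-like cells (3.63 and 2.97 CPM). The lymphatic class thus shared Abcg2 with endothelial-like cells and held almost no Abcb1a. Abcc4 was at 20.8 CPM in Foxq1iECKO and 26.5 CPM in Foxq1flox/flox lymphatic endothelial-like cells and at 12.8 and 13.3 CPM in macrophage-like cells. The summed level of 12 endothelial markers in lymphatic endothelial-like cells was 39.5% of that in endothelial-like cells for Foxq1iECKO and 37.7% for Foxq1flox/flox, close to the 33.8% and 30.4% of Abcg2 and far above the 4.03% and 3.32% of Abcb1a.

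Abcc1, which exports glutathione conjugates and leukotriene C4, was highest in leukocytes and macrophages. It held 90.8 CPM in Foxq1iECKO and 87.2 CPM in Foxq1flox/flox leukocyte-like cells and 61.0 and 46.1 CPM in macrophage-like cells, against 12.7 and 10.96 CPM in endothelial-like cells. Among 31 cell groups of 50 or more cells in each library, the mean level was highest in the Cpa3 and Cma1 cluster, whose leading genes are mast cell proteases, with 90.2 CPM in Foxq1iECKO and 98.0 CPM in Foxq1flox/flox. The leading 4 groups did not differ from their neighbours beyond counting error in both libraries, and the Lyve1 and F13a1 macrophage cluster, next in order at 74.5 and 73.5 CPM, was above the group after it, the lymphatic cells at 31.1 and 32.4 CPM.

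Abcc5, a transporter of cyclic nucleotides and small peptides, was highest in neurons and varied least between the 9 classes of 200 or more cells in each library. It held 58.6 CPM in Foxq1iECKO and 66.3 CPM in Foxq1flox/flox neuron-like cells, 48.1 and 46.3 CPM in fibroblast-like cells and 21.4 and 20.6 CPM in endothelial-like cells. Its highest group was the Pou4f1 and Ina neuron cluster, with 72.2 and 76.5 CPM, although the order of its leading groups did not exceed counting error. The Fam13a and Cxcl12 barrier endothelial subcluster ranked 3 of 31 groups, with 58.9 CPM in Foxq1iECKO and 50.5 CPM in Foxq1flox/flox. The lowest of the 9 classes was the leukocyte-like class, with 14.9 CPM in Foxq1iECKO and 18.2 CPM in Foxq1flox/flox. The small megakaryocyte-like class, of 49 and 74 cells, held 73.1 CPM [44.0, 114.2] in Foxq1iECKO and 78.8 CPM [52.8, 113.2] in Foxq1flox/flox, from 19 and 29 UMIs, and was left out of the order for its cell number.

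Abca1, the cholesterol exporter, was highest in a barrier endothelial subcluster and in macrophages. The barrier subcluster led by Fam13a and Cxcl12 held 1101 CPM in Foxq1iECKO and 1194 CPM in Foxq1flox/flox, and macrophage-like cells 993 and 1035 CPM. The 3 macrophage clusters followed that subcluster in the order. It was above the Lyve1 and F13a1 cluster (984 [958, 1012] CPM in Foxq1iECKO and 1003 [971, 1036] CPM in Foxq1flox/flox), with intervals of [1015, 1191] and [1116, 1276] CPM that do not overlap those of that cluster in either library. Fibroblast-like cells held 118 CPM in Foxq1iECKO and 99.8 CPM in Foxq1flox/flox, and neuron-like cells 53.5 and 50.9 CPM.

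The level that free endothelial RNA would leave in other cells can be read from endothelial markers. In neuron-like cells the endothelial marker sum was 2.88% of that in endothelial-like cells for Foxq1iECKO and 3.33% for Foxq1flox/flox. At that share Abcb1a would be at 2.05 CPM in Foxq1iECKO and 3.32 CPM in Foxq1flox/flox neuron-like cells, and 3.63 and 2.97 CPM were measured. Levels of Abcb1a in neuron-like, macrophage-like and radial glia-like cells were therefore not read as expression. For Abcc1 and Abcc5 the same share gave 0.687 CPM or less in neuron-like cells, far below what was measured. Both are lower in endothelial-like than in neuron-like cells, so that outcome was given in advance. Free RNA from other classes, such as leukocytes, was not estimated.

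Over the 31 groups, with the level averaged over both libraries on the log2(CPM + 5) scale, 11473 genes were searched for the closest patterns. Abcb1a was most like Vwa1 (Pearson r = 0.967), AU021092 (0.9502) and Slc2a1, the glucose transporter of the barrier (0.949). Abcg2 was most like Adgrf5 (0.961), Clec1a (0.960) and Ramp2 (0.958), and Abcc4 most like Cd93 (0.943), Ctla2a (0.943) and Sox7 (0.935). The pattern genes of Abcg2 and Abcc4 included Ramp2 and Cd93, which mark endothelium at large. Abca1 was most like Dram2 (0.930), Adam15 (0.919) and Selenop (0.918), Abcc1 most like Emb (0.873), Stap1 (0.865) and Stxbp2 (0.862), and Abcc5 most like Mast2 (0.881), Lrig2 (0.874) and Tbc1d24 (0.864). Among the members, r was 0.86 for Abcb1a with Abcg2, 0.87 for Abcb1a with Abcc4, 0.86 for Abcg2 with Abcc4 and -0.65 for Abcc1 with Abcg2. Abcb1a was above the following group in both libraries at each of its 3 highest places (both barrier subclusters and the Rgs5 and Abcc9 cluster), Abcg2 at its highest place (the Fam13a and Cxcl12 subcluster) alone among its first 6, and the 2 barrier subclusters that led for Abcc4 were not separated. The coefficients describe groups that share 2 libraries, and subclusters and other groups differ in depth.

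Within endothelium, Abcb1a was the member tied to barrier subclusters. Subclusters were named from barrier genes such as Slc2a1, Mfsd2a and Slco1c1, and those named barrier were led by Foxq1 and Htra3 and by Fam13a and Cxcl12. They held 458 of 1665 endothelial-like cells in the Foxq1iECKO library (27.5%) and 893 of 2323 in the Foxq1flox/flox library (38.4%). Since Foxq1 and the barrier genes took part in forming them, a cell with fewer of those transcripts would fall outside, and the size of these subclusters is given as a description. Cells of the unnamed Rgs5 and Abcc9 cluster, which also held barrier markers, are not counted in it.

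Abcb1a held 203.4 CPM [185.3, 222.7] in barrier and 32.6 CPM [28.7, 36.8] in other endothelial subclusters of the Foxq1iECKO library, a 6.25-fold difference. In the Foxq1flox/flox library it held 197.6 CPM [186.6, 209.0] and 35.5 CPM [31.8, 39.5], a 5.57-fold difference. It was the 1 member of 6 that was 2-fold or more higher in barrier subclusters of both libraries, beside 4.11% of all genes. Abcc4 was 1.67-fold higher in barrier subclusters of the Foxq1iECKO library and 1.48-fold higher in those of the Foxq1flox/flox library, and Abcg2 1.39-fold and 1.38-fold higher. Abca1 was 1.04-fold and 1.16-fold higher, and Abcc5 was at 1.08 and 0.97 times its level in the other subclusters. Abcc1 was at 0.63 and 0.61 times its level in the other subclusters, and 0 members were 2-fold or more lower in both libraries, beside 2.54% of all genes. The 12 endothelial markers were also higher in barrier subclusters. They summed to 7640 CPM in barrier and 5500 CPM in other subclusters of Foxq1iECKO, and to 8111 and 5946 CPM in Foxq1flox/flox. Their part in the smaller ratios, such as that of Abcg2, was not tested. With subclusters formed at a finer resolution the log2 ratio of Abcb1a between barrier and other cells was 2.05 in Foxq1iECKO and 1.43 in Foxq1flox/flox, against 2.64 [2.42, 2.87] and 2.48 [2.30, 2.66] as given above.

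**Figure D2:**
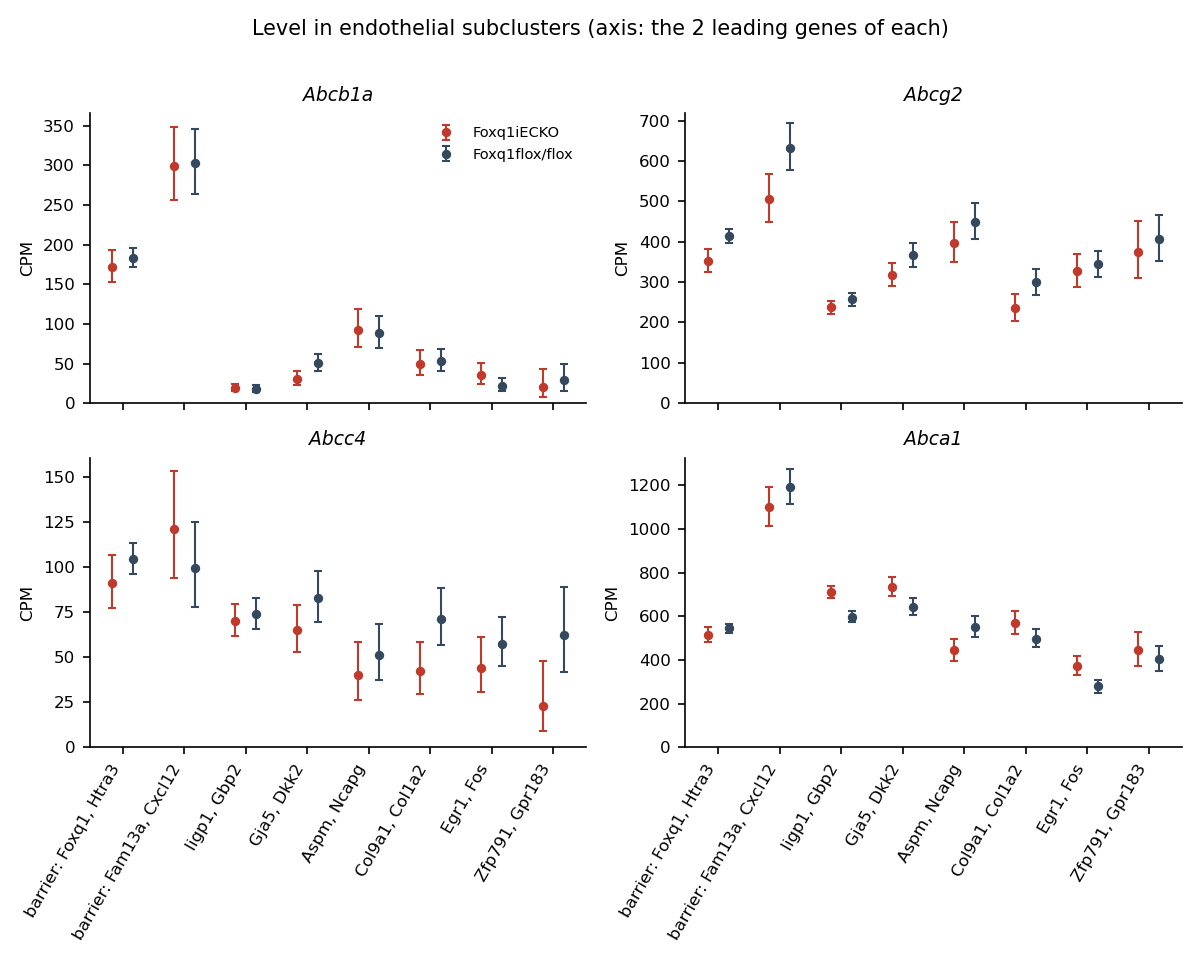
Level in CPM (linear axis from 0) of 4 members in the 8 endothelial subclusters of 50 or more cells in each library, with Foxq1iECKO in red left of Foxq1flox/flox in dark blue. Points are 1 library each with exact 95% Poisson intervals, and the 2 barrier subclusters come first. Abcb1a is highest in both barrier subclusters, at 299.7 and 302.9 CPM in that led by Fam13a and Cxcl12, while Abcg2 stays above 236 CPM in all 8.

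The members spread differently over the 8 subclusters of 50 or more cells in each library. Abcb1a spanned 15.5-fold in Foxq1iECKO (19.3 to 299.7 CPM) and 17.2-fold in Foxq1flox/flox (17.6 to 302.9 CPM), with its lowest level in the Iigp1 and Gbp2 subcluster. Abcg2 spanned 2.14-fold in Foxq1iECKO (236.1 to 504.8 CPM) and 2.46-fold in Foxq1flox/flox (257.0 to 633.1 CPM), so no endothelial subcluster of this size lacked it. Abca1 ran from 374.6 to 1101 CPM in Foxq1iECKO and from 279.4 to 1194 CPM in Foxq1flox/flox, lowest in the Egr1 and Fos subcluster and highest in the Fam13a and Cxcl12 barrier subcluster. Abcc4 ran from 23.2 to 121.3 CPM in Foxq1iECKO and from 51.3 to 104.6 CPM in Foxq1flox/flox, with its highest level in a barrier subcluster of each library. The 2 barrier subclusters were not alike. Abcb1a held 172.2 CPM in Foxq1iECKO and 183.3 CPM in Foxq1flox/flox in the one led by Foxq1 and Htra3, below the Fam13a and Cxcl12 subcluster in both libraries. Abcc5 held 10.98 and 16.2 CPM in the first and 58.9 and 50.5 CPM in the second. The Fam13a and Cxcl12 subcluster was the shallower of the pair, with a median of 2208 UMIs per cell in Foxq1iECKO and 2329 in Foxq1flox/flox, against 6041 and 7566.5 in the Foxq1 and Htra3 subcluster.

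Between the genotypes, endothelial-like cells as a whole held less Abcb1a, Abcg2 and Abcc4 and slightly more Abca1 in the Foxq1iECKO library. Abcb1a had 723 UMIs in 1665 Foxq1iECKO cells and 1553 UMIs in 2323 Foxq1flox/flox cells. Its level was 71.0 CPM [65.9, 76.4] in Foxq1iECKO and 99.5 CPM [94.6, 104.6] in Foxq1flox/flox, a log2 ratio of -0.49 [-0.62, -0.36]. Abcg2 held 304.6 CPM [294.0, 315.5] in Foxq1iECKO and 366.9 CPM [357.5, 376.5] in Foxq1flox/flox, a log2 ratio of -0.27 [-0.33, -0.21]. These intervals do not overlap between the libraries, and both ratios are inside the 1.5-fold limit. Abcc4 held 67.95 CPM [62.99, 73.2] in Foxq1iECKO and 83.4 CPM [78.97, 88.1] in Foxq1flox/flox, a log2 ratio of -0.30 [-0.43, -0.16]. Abca1 held 639 CPM [624, 655] in Foxq1iECKO and 569 CPM [557, 581] in Foxq1flox/flox, a log2 ratio of 0.17 [0.12, 0.21]. Abcc1 and Abcc5 could not be told apart between the libraries at this depth. Abcc1 had 129 UMIs in Foxq1iECKO and 171 in Foxq1flox/flox (log2 ratio 0.21 [-0.13, 0.55]), and Abcc5 218 and 322 UMIs (0.05 [-0.20, 0.31]).

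Of the 6 members, 0 were apart by size in endothelial-like cells, where 1.38% of 6223 genes at 20 or more CPM were, 42 of them higher and 44 lower. The median log2 ratio was -0.11 for the members and -0.02 for all 8027 genes at 10 or more CPM. Without the shared barcodes the log2 ratio was -0.46 for Abcb1a, -0.27 for Abcg2, -0.30 for Abcc4 and 0.17 for Abca1. Abcb1a passed the limit with a stricter cell filter (log2 ratio -0.60) and lay far inside it when all subclusters were given equal weight (-0.05).

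The ratio of Abcb1a in all endothelial-like cells was not found inside either part of them. In barrier subclusters Abcb1a held 203.4 CPM in Foxq1iECKO and 197.6 CPM in Foxq1flox/flox (log2 ratio 0.04 [-0.12, 0.20]), and in the other subclusters 32.6 and 35.5 CPM (-0.12 [-0.36, 0.11]). Barrier subclusters contributed 22.5% of endothelial UMIs in the Foxq1iECKO library and 39.5% in the Foxq1flox/flox library. With the subclusters of both libraries weighted as in the Foxq1flox/flox library, the log2 ratio of Abcb1a was -0.07. Barrier markers moved in the same way. Their sum over 15 genes was 3423 CPM in Foxq1iECKO and 4891 CPM in Foxq1flox/flox endothelial-like cells, and 10281.5 and 9989 CPM inside barrier subclusters. These genes also named the barrier subclusters, so their like sums inside them are partly given by the choice of cells. A smaller number of barrier cells and the placing of barrier cells in other groups cannot be told apart here. Those groups are other subclusters, for cells with less Foxq1 and barrier transcripts, and the unnamed Rgs5 and Abcc9 cluster. The unnamed Rgs5 and Abcc9 cluster, kept outside the endothelial-like class, also held the barrier markers. They summed there to 7744 CPM in Foxq1iECKO and 8356 CPM in Foxq1flox/flox. Its 785 Foxq1iECKO and 450 Foxq1flox/flox cells are not counted in the barrier shares, so those shares do not cover all cells with barrier transcripts.

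Abcg2 differed from Abcb1a in that its lower level was seen in both parts. Barrier subclusters held 390.2 CPM [365.0, 416.6] in Foxq1iECKO and 439.7 CPM [423.3, 456.6] in Foxq1flox/flox (log2 ratio -0.17 [-0.28, -0.06]). Other subclusters held 279.8 CPM in Foxq1iECKO and 319.4 CPM in Foxq1flox/flox (-0.19 [-0.27, -0.11]). The log2 ratio was below 0 in 8 of 8 subclusters, from -0.34 to -0.07, with the interval below 0 in 4 of them. The subclusters share 2 libraries and are not replicates. The share of all genes with such counts, here or for the members below, was not computed. Over all cells used, the log2 ratio of Abcg2 was -0.31 [-0.36, -0.27]. It was -0.45 in macrophage-like, -0.06 in fibroblast-like and 0.30 in leukocyte-like cells. Weighted as in the Foxq1flox/flox library, the log2 ratio of Abcg2 was -0.20, so most of its smaller difference remained. The summed endothelial markers were also lower in the Foxq1iECKO library, at 5981 CPM against 6802 CPM in Foxq1flox/flox endothelial-like cells and at 7640 against 8111 CPM in barrier subclusters. Their part in the Abcg2 ratio was not tested.

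Abcc4 was close between the libraries in barrier subclusters, with 98.6 CPM in Foxq1iECKO and 104.0 CPM in Foxq1flox/flox (log2 ratio -0.08 [-0.30, 0.15]). It was lower in the other subclusters, with 59.0 and 70.0 CPM (-0.25 [-0.42, -0.07]). Its log2 ratio was below 0 in 7 of 8 subclusters, the exception being the Fam13a and Cxcl12 barrier subcluster with 121.3 CPM in Foxq1iECKO and 99.6 CPM in Foxq1flox/flox (0.28 [-0.21, 0.78]).

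Abca1 was higher in Foxq1iECKO in the other subclusters as a pool, and not in each of them. Other subclusters held 633.5 CPM in Foxq1iECKO and 534.4 CPM in Foxq1flox/flox (log2 ratio 0.25 [0.19, 0.30]), and barrier subclusters 658.6 and 622.2 CPM (0.08 [-0.00, 0.17]). The interval was above 0 in 4 of 8 subclusters. The Egr1 and Fos subcluster had the largest ratio, with 374.6 CPM in Foxq1iECKO and 279.4 CPM in Foxq1flox/flox (0.42 [0.20, 0.65]), and the Aspm and Ncapg subcluster of cycling cells had the opposite sign, with 444.5 and 551.4 CPM (-0.31 [-0.52, -0.10]). The difference between these subclusters was not tested.

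In all barrier and all other endothelial cells, 0 members were apart by size, beside 2.69% and 0.774% of all genes. Single subclusters gave 3 calls among 6 members in 8 subclusters. The arterial subcluster led by Gja5 and Dkk2 held 30.6 CPM of Abcb1a in Foxq1iECKO and 50.1 CPM in Foxq1flox/flox, from 47 and 84 UMIs (log2 ratio -0.71 [-1.26, -0.18]). The subcluster led by Col9a1 and Col1a2 held 42.3 CPM of Abcc4 in Foxq1iECKO and 71.3 CPM in Foxq1flox/flox (-0.75 [-1.36, -0.17]), and that led by Zfp791 and Gpr183 held 23.2 and 62.4 CPM, from 7 and 30 UMIs (-1.43 [-2.86, -0.21]). All 3 were lower in the Foxq1iECKO library. In these subclusters 4.33%, 6.06% and 6.43% of all genes were apart by size. In the other 5 subclusters 0 members were, beside 2.97% of genes in the Foxq1 and Htra3, 1.32% in the Iigp1 and Gbp2, 5.68% in the Fam13a and Cxcl12, 6.96% in the Aspm and Ncapg and 5.08% in the Egr1 and Fos subcluster. Against these background shares, 3 calls are no result about the members. A further subcluster, of 24 cells in Foxq1iECKO and 32 in Foxq1flox/flox, was too small to compare. The collagen-led subcluster had a median of 1762 UMIs per cell in Foxq1iECKO and 3838 in Foxq1flox/flox.

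**Figure D3:**
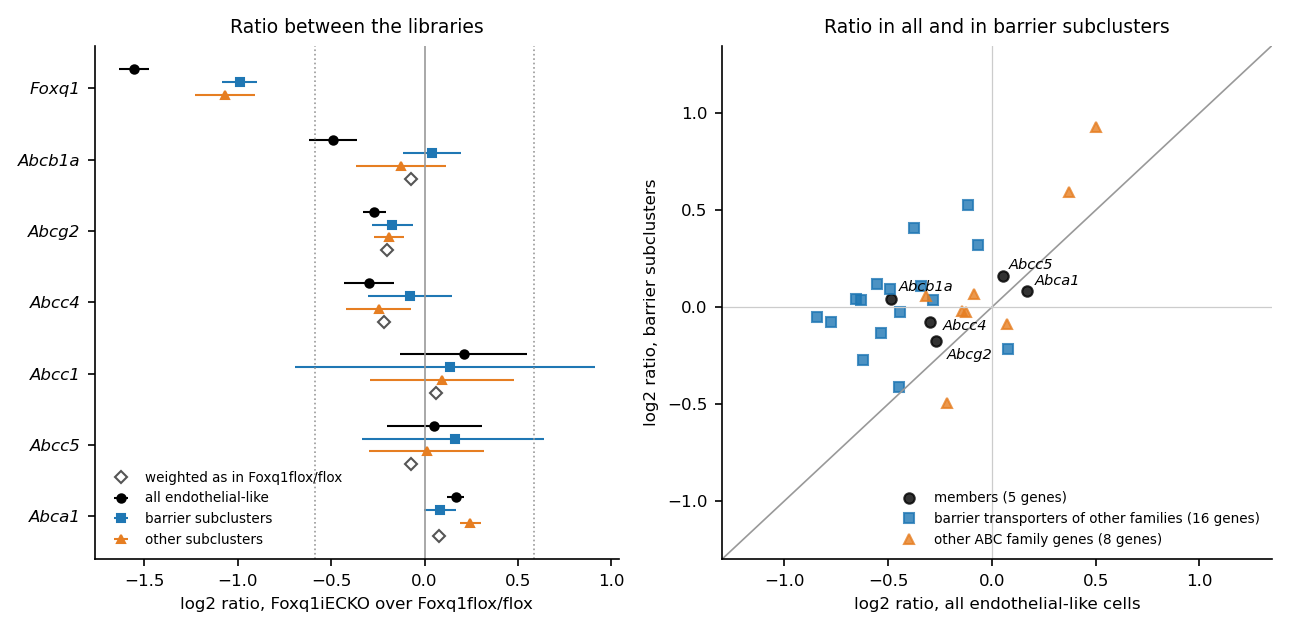
Left, log2 ratio of Foxq1iECKO over Foxq1flox/flox for Foxq1 and the members in all endothelial-like cells, barrier subclusters and other subclusters, with exact 95% intervals of counting error, and with subclusters weighted as in the Foxq1flox/flox library (open diamonds, members alone); dotted lines mark a ratio of 1.5. Right, the ratio in all endothelial-like cells against that in barrier subclusters for 5 members, 16 barrier transporters of other families and 8 other ABC genes; Abcb1a lies at -0.49 on the first axis and 0.04 on the second, among the barrier transporters.

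Cells with a UMI were compared after each cell had been thinned to 2000 UMIs, which left out 347 shallower endothelial-like cells in Foxq1iECKO and 365 in Foxq1flox/flox. An Abcb1a UMI was found in 12.97% [11.2, 14.9] of Foxq1iECKO and 16.7% [15.1, 18.4] of Foxq1flox/flox endothelial-like cells, and in 25.7% and 32.6% before thinning. In barrier subclusters the thinned shares were 30.8% in Foxq1iECKO and 31.3% in Foxq1flox/flox (111 and 136 cells left out; 52.2% and 58.8% before thinning), and in other subclusters 6.59% and 7.49%. As with the summed levels, the gap between libraries was in the whole class and not inside the barrier subclusters. Neuron-like cells, taken as background from free RNA, had Abcb1a shares of 0.54% in Foxq1iECKO and 0.40% in Foxq1flox/flox (192 and 248 cells left out). Median depth was 3884 and 4220 UMIs in endothelial-like, 3119.5 and 4554 in barrier and 3267 and 3266.5 in neuron-like cells.

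Abcg2 was found in 44.2% of Foxq1iECKO and 51.2% of Foxq1flox/flox endothelial-like cells after thinning (68.4% and 75.9% before), against 4.97% and 4.21% of neuron-like cells. The Abcg2 shares were 55.3% in Foxq1iECKO and 56.8% in Foxq1flox/flox barrier cells and 40.2% and 47.7% in the other subclusters. Abcc4 was found in 12.4% and 14.8% of endothelial-like cells and in 1.08% and 1.31% of neuron-like cells. For Abca1 the endothelial shares were 62.4% in Foxq1iECKO and 60.6% in Foxq1flox/flox, below its shares of 75.6% and 78.8% in macrophage-like cells. The Abcc1 and Abcc5 shares were lower in endothelial-like than in neuron-like cells. Abcc1 had 2.58% in Foxq1iECKO and 2.50% in Foxq1flox/flox endothelial-like cells against 4.52% and 4.67% in neuron-like cells, and Abcc5 5.01% and 3.93% against 9.76% and 13.6%.

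**Figure D4:**
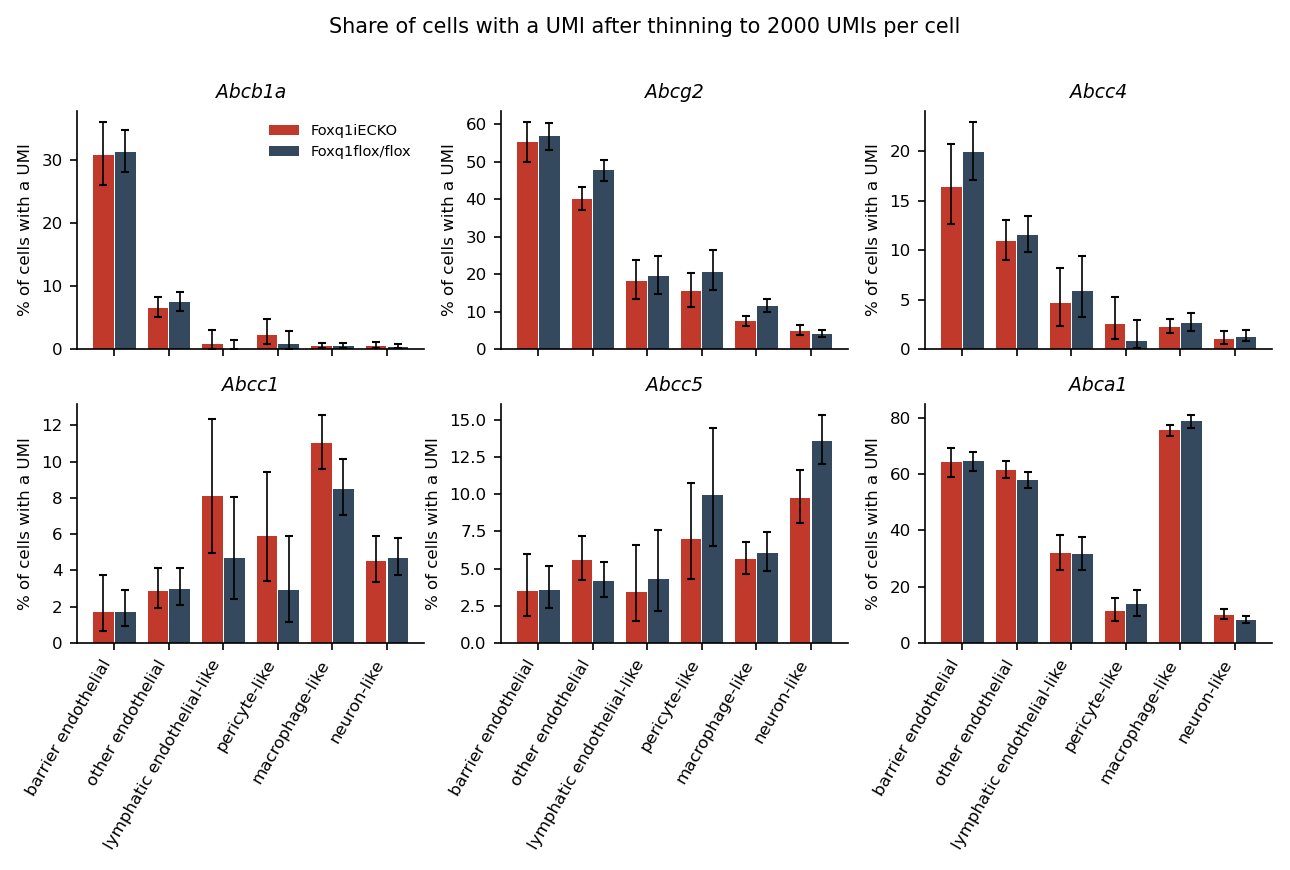
Share of cells with at least 1 UMI of each member after thinning to 2000 UMIs per cell, in 6 cell groups, with Foxq1iECKO in red left of Foxq1flox/flox in dark blue. Bars are 1 library each and error bars are exact 95% binomial intervals (Clopper-Pearson). Abcb1a reaches 30.8% and 31.3% in barrier subclusters and stays below 8% in the other groups drawn.

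An unnamed cluster led by Rgs5 and Abcc9 carried both endothelial and pericyte markers and was kept apart from the endothelial-like class. It held 785 cells in Foxq1iECKO and 450 in Foxq1flox/flox, with medians of 9262 and 9856 UMIs per cell, and its 10 pericyte markers summed to 4842 CPM in Foxq1iECKO and 4239 CPM in Foxq1flox/flox. The 15 barrier markers summed to 7744 CPM in Foxq1iECKO and 8356 CPM in Foxq1flox/flox in this cluster. Its Abcb1a level ranked 3 among the 31 groups, with 126.8 CPM in Foxq1iECKO and 129.8 CPM in Foxq1flox/flox (log2 ratio -0.03 [-0.18, 0.12]), whereas pericyte-like cells held 8.36 and 3.42 CPM from 11 and 4 UMIs. Abcg2 was at 288.0 CPM in Foxq1iECKO and 324.5 CPM in Foxq1flox/flox (-0.17 [-0.27, -0.08]), in the same direction as in endothelial-like cells. Abcc4 held 56.8 CPM in Foxq1iECKO and 63.2 CPM in Foxq1flox/flox (-0.15), Abcc1 12.7 and 11.35 CPM (0.16), and Abcc5 had 150 and 87 UMIs (0.05). Abca1 was lower there, with 406.9 CPM in Foxq1iECKO and 488.5 CPM in Foxq1flox/flox (-0.26 [-0.34, -0.18]), opposite in sign to endothelial-like cells. Of the 6 members, 0 were apart by size, beside 1.23% of all genes. With this cluster added to the endothelial-like class, the log2 ratio of Abca1 was -0.03 and that of Abcb1a -0.17. Pericyte markers within endothelial-like cells summed to 205.5 CPM in Foxq1iECKO and 172.5 CPM in Foxq1flox/flox, with all 10 detected in both.

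Outside the endothelial-like class, 2 calls were made among the members in the other 8 classes of 200 or more cells in each library, both for Abcc4 at low counts. Pericyte-like cells held 12.9 CPM of Abcc4 in Foxq1iECKO and 4.27 CPM in Foxq1flox/flox, from 17 and 5 UMIs (log2 ratio 1.60 [0.10, 3.39]), and fibroblast-like cells 6.75 and 4.47 CPM, from 94 and 58 UMIs (0.59 [0.11, 1.09]). Both are higher in Foxq1iECKO and below 20 CPM. They lie outside the 5.86% and 1.63% of genes called in these classes, counted among genes at 20 or more CPM. In pericyte-like cells, of 8833 genes that reached 10 CPM in either library, 224 were higher and 338 lower by size. In fibroblast-like cells no share was counted that covers the level of Abcc4, below 10 CPM. Neither call is therefore a result about Abcc4. At the share of endothelial markers found in pericyte-like cells (11.2% in Foxq1iECKO and 10.8% in Foxq1flox/flox), Abcc4 would be at 7.59 and 8.99 CPM there.

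Macrophage-like cells gave the clearest differences between the libraries outside endothelium, all within 1.5-fold in the class as a whole. Abcc1 held 61.0 CPM in Foxq1iECKO and 46.1 CPM in Foxq1flox/flox (log2 ratio 0.40 [0.21, 0.59]). By cluster, it held 74.5 CPM in Foxq1iECKO and 73.5 CPM in Foxq1flox/flox in the Lyve1 and F13a1 cluster, 26.6 and 16.7 CPM in the cluster led by P2ry12 (0.67 [0.19, 1.17]), and 95.2 and 57.5 CPM in the Rsad2 and Ifit1 cluster (0.73 [0.15, 1.34]). P2ry12 is a microglial gene and Rsad2 and Ifit1 interferon-induced genes. The Rsad2 and Ifit1 cluster held 245 cells in Foxq1iECKO and 86 in Foxq1flox/flox. By size, Abcc1 was higher in Foxq1iECKO in the P2ry12 cluster and in the Rsad2 and Ifit1 cluster. The share of all genes apart by size was not counted in these clusters, so these calls are no result about Abcc1. Abcg2 held 42.3 CPM in Foxq1iECKO and 57.9 CPM in Foxq1flox/flox macrophage-like cells (-0.45 [-0.65, -0.26]), lower in Foxq1iECKO in this class too. Abcc5 held 29.0 and 35.9 CPM (-0.31 [-0.55, -0.07]) and Abca1 993 and 1035 CPM (-0.06 [-0.10, -0.02]). In the class as a whole 0 members were apart by size, beside 1.91% of genes.

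A call in the other direction came from the megakaryocyte-like class, below that cell number, where Abcg2 held 46.2 CPM in Foxq1iECKO and 127.7 CPM in Foxq1flox/flox, from 12 and 47 UMIs (log2 ratio -1.47 [-2.52, -0.53]), beside 9.06% of genes apart by size there. In the remaining classes of 200 or more cells 0 members were apart by size, beside 2.49% of genes in lymphatic endothelial-like, 3.13% in leukocyte-like, 2.05% in cartilage-like, 2.43% in radial glia-like and 4.89% in neuron-like cells. Abcg2 in lymphatic endothelial-like cells had a log2 ratio of -0.11 [-0.34, 0.12]. Abcc5 in neuron-like cells, its highest class of those 9, was at 58.6 CPM in Foxq1iECKO and 66.3 CPM in Foxq1flox/flox (-0.18 [-0.40, 0.04]). Abca1 in fibroblast-like cells held 117.7 CPM in Foxq1iECKO and 99.8 CPM in Foxq1flox/flox (0.24 [0.13, 0.34]). The interval of the last ratio excludes 0, and those of the first and second do not.

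The rest of the ABC family was mostly scarce in endothelial-like cells. Of 47 other family genes, 9 reached 10 CPM in either library, with 1 higher and 0 lower by size and a median log2 ratio of -0.08, beside 83 higher and 78 lower of 8027 genes and a median of -0.02. The gene called was Tap1, which moves peptides into the endoplasmic reticulum for antigen presentation, with 12.7 CPM in Foxq1iECKO and 5.51 CPM in Foxq1flox/flox (1.20 [0.80, 1.61]). Abcc9, a subunit of potassium channels and a pericyte gene, held 135.3 CPM in Foxq1iECKO and 104.7 CPM in Foxq1flox/flox (0.37 [0.27, 0.48]). Abcg1, the partner of Abca1 in sterol efflux, held 84.0 CPM in Foxq1iECKO and 104.5 CPM in Foxq1flox/flox (-0.32 [-0.44, -0.20]), opposite in sign to Abca1. Abce1, a ribosome recycling factor, held 115.7 and 122.6 CPM, the peroxisomal Abcd3 49.7 and 54.1 CPM and Abcf1, which acts in translation, 48.1 and 53.1 CPM, all with log2 ratios from -0.14 to -0.08. The near copy of Abcb1a, Abcb1b, held 8.25 CPM in Foxq1iECKO and 6.02 CPM in Foxq1flox/flox and was chosen for mention after its values were seen. In barrier subclusters 8 of the other family genes were measured, beside 264 higher and 94 lower of 8090 genes by size there, and 2 were higher by size, Abcc9 with 81.2 CPM in Foxq1iECKO and 53.8 CPM in Foxq1flox/flox (0.59 [0.33, 0.86]) and Abca3, a lipid transporter of lamellar bodies in lung, with 12.7 and 6.65 CPM (0.93 [0.19, 1.65]). The pericyte marker sum in barrier subclusters was 365.3 CPM in Foxq1iECKO and 275.1 CPM in Foxq1flox/flox, with 10 and 9 of 10 markers detected, and its part in the Abcc9 ratio was not tested.

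Barrier transporters of other families were lower in the whole endothelial-like class of Foxq1iECKO and near equal inside barrier subclusters, as Abcb1a was. Of 18 listed, 16 were measured in endothelial-like cells, with 0 higher and 5 lower by size and a median log2 ratio of -0.47. The 4 largest were Mfsd2a, a lysophospholipid carrier, with 23.6 CPM in Foxq1iECKO and 42.2 CPM in Foxq1flox/flox (-0.84), the organic anion carrier Slc22a8 with 15.4 and 26.4 CPM (-0.78), the lipoprotein receptor Lrp8 with 228.4 and 360.1 CPM (-0.66) and the glutamine carrier Slc38a5 with 23.9 and 36.9 CPM (-0.63). Inside barrier subclusters 17 were measured, with no call in either direction and a median of 0.04. There Mfsd2a held 90.8 CPM in Foxq1iECKO and 93.9 CPM in Foxq1flox/flox and Lrp8 821.0 and 796.4 CPM. Several of these genes also named the barrier subclusters, so their like levels inside them are partly given by the choice of cells.

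Genes that supply or regulate the exporters differed little between the libraries. Of 18 cholesterol genes, 15 were measured in endothelial-like cells with 0 apart by size and a median of -0.18. Among the most abundant were Insig1, which holds back sterol synthesis, with 95.1 CPM in Foxq1iECKO and 109.4 CPM in Foxq1flox/flox (-0.20), and the synthesis gene Hmgcs1 with 87.2 and 102.5 CPM (-0.23). Of 12 glutathione genes 6 were measured, and the cystine carrier Slc7a11 was the 1 called, with 24.3 CPM in Foxq1iECKO and 11.8 CPM in Foxq1flox/flox (1.04 [0.76, 1.32]). The subunits of glutamate-cysteine ligase, Gclm and Gclc, held 248.3 and 237.5 CPM (0.06) and 86.8 and 75.4 CPM (0.20), and Gsto1 86.3 and 82.5 CPM (0.06). Of 21 known regulators of efflux genes 12 were measured with 0 apart by size and a median of 0.02. Among the most abundant, Ctnnb1 (beta-catenin) held 1853 CPM in Foxq1iECKO and 1810 CPM in Foxq1flox/flox (0.03), Foxo1 271.8 and 254.8 CPM (0.09), Nfe2l2, which encodes NRF2, 243.0 and 225.1 CPM (0.11) and Tcf7l2 210.8 and 206.3 CPM (0.03).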

How the data were processed

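The authors deposited UMI counts for each gene and barcode, as whole numbers, and no normalized values. Per the submitters' processing notes the tools included fastp 0.24.0 and STARsolo 2.7.11b with build mm10; the sources used here state neither their settings, nor the annotation, nor how reads with several alignments were treated, and every barcode held at least 500 UMIs. Depth limits precision, since intervals widen as summed UMIs fall.

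Groups came from the genotype labels. Cells needed 500 genes, 1000 UMIs and a mitochondrial share of 20% or less, and doublets predicted by Scrublet in scanpy 1.11.5 (expected share 8%) were removed, 4.20% of Foxq1iECKO and 4.00% of Foxq1flox/flox cells. Both libraries were clustered together without batch correction (2000 variable genes without the 6 members, 30 components, 20 neighbours, leidenalg 0.10.2, igraph 0.11.9, resolution 1, and 0.6 within endothelial-like cells). Abcb1a and Abca1 would otherwise have been among the variable genes. Names needed 3 markers at 50 or more CPM and 2-fold or more above other cells with a pseudocount of 5 CPM, from 16 class lists and 6 subtype lists. No erythroid-like class was named, so neuron-like cells alone gave the background of shares.

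No test between genotypes was possible, and no p-value is given. Levels have exact Poisson, shares exact Clopper-Pearson and ratios exact conditional binomial intervals. Alternatives covered scaling by TMM (edgeR 4.0.16) and median of ratios (DESeq2 1.42.0), filters, clustering, weights, thresholds and thinning. The members and lists were chosen with earlier results of these data known. In each described group all members were named; of the ABC family the 6 most abundant and any apart by size; of other lists up to 4 genes, those apart by size first; for each member the 3 most like it. Some genes that this rule names are not reported here. Promoters and loci came from RefSeq and GENCODE tables. Intervals were computed with scipy 1.17.1 under Python 3.11.15, and figures with matplotlib 3.10.9.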

Additional observations from a re-analysis of the deposited data

Results flagged for a closer look

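Abcc4 in fibroblast-like cells had a log2 ratio of Foxq1iECKO over Foxq1flox/flox that was 0.89 above that in endothelial-like cells, since it was higher in the first class and lower in the second. Abcc4 in pericyte-like cells gave the same contrast with a gap of 1.89. Both rest on levels under 20 CPM outside endothelium, with 94 UMIs in Foxq1iECKO and 58 in Foxq1flox/flox fibroblast-like cells and 17 and 5 in pericyte-like cells. Abca1 in macrophage-like cells had a log2 ratio that was 0.23 below that in endothelial-like cells (a difference of -0.23), lower in the first class and higher in the second. These differences between classes were not tested, since each genotype had 1 library.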

How the results depend on the processing

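Of the recomputed values 92 stayed within the counting interval of the value reported (within 1.5 times for counts of members), 32 left it and 1 whose interval excluded 0 changed sign. Abcc5, whose intervals included 0, changed sign as well, to -0.072 with the weights of the Foxq1flox/flox library and to 0.081 for barrier over other cells of that library with a barrier gate per cell. The log2 ratios in endothelial-like cells ranged over 13 settings from -0.60 to -0.05 for Abcb1a, -0.30 to -0.20 for Abcg2, -0.36 to -0.21 for Abcc4, 0.06 to 0.24 for Abcc1, -0.07 to 0.07 for Abcc5 and -0.03 to 0.22 for Abca1. Adding the Rgs5 and Abcc9 cluster gave -0.17 for Abcb1a and turned Abca1 to -0.028. Equal subcluster weights gave -0.054 for Abcb1a and 0.055 for Abca1. Weights of the Foxq1flox/flox library, chosen after seeing the data as was leaving out the collagen-led subcluster or shared barcodes, gave -0.073 for Abcb1a, -0.20 for Abcg2 and 0.078 for Abca1. A stricter cell filter gave 0.22 for Abca1 and 1 member apart by size, and a marker gate per cell gave 0.067 for Abca1. A smaller limit on the ratio also gave 1 member apart. The share of all genes apart was 2.01% from 10 CPM, 1.047% from 50 CPM and 3.64% with no minimum. With finer subclusters the log2 ratio of barrier over other cells was 2.05 in Foxq1iECKO and 1.43 in Foxq1flox/flox for Abcb1a, 0.36 in Foxq1flox/flox for Abcg2, and 0.14 and 0.32 for Abca1. A barrier gate per cell gave 0.55 for Abcg2 and 0.45 for Abca1 in Foxq1flox/flox. Thinned to 1000 UMIs, the endothelial shares in Foxq1iECKO and Foxq1flox/flox were 9.07% and 10.2% for Abcb1a, 26.9% and 32.0% for Abcg2, 5.53% and 6.802% for Abcc4, 1.20% and 0.904% for Abcc1, 2.52% and 2.71% for Abcc5 and 42.2% and 42.1% for Abca1, lower by construction. The cause of the other changes was not tested. No paired analysis was possible because each genotype had 1 library, and for the same reason no replicate could be left out. Abcc1, and every member outside endothelium with under 100 UMIs, is limited by depth.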
